A study of Mus musculus with 16 samples.

Results

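The proteasome genes described here are the protein-coding autosomal genes of the GENCODE M21 annotation whose symbols begin with Psma, Psmb, Psmc, Psmd, Psme, Psmf or Psmg, which gave 49 of 20807 protein-coding autosomal genes. They were followed through a list of accessible chromatin regions in mouse embryonic stem (ES) cells, and a region was assigned to a gene when its centre lay within 5 kb of any annotated transcription start site (TSS) of that gene. Of the 81132 regions in the list, 77 met this rule for at least 1 proteasome gene.

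The cells were SBROS, an ES cell line derived from CGR8 with reporters for Sox1 and Brachyury. It also carries knock-in tags, HALO on Oct4 (heterozygous) and SNAP on Sox2 (homozygous). They grew in serum with LIF, CHIR99021 and PD184352, and were stained for both tags and for DNA content before sorting in G1. The 4 sorted populations were SHOH (SOX2 high, OCT4 high), SHOL (SOX2 high, OCT4 low), SLOH (SOX2 low, OCT4 high) and SLOL (SOX2 low, OCT4 low), with 3 ATAC-seq replicates each. ATAC-seq marks accessible DNA by the insertions of the Tn5 transposase. The deposited list merges the peaks of all 12 libraries and gives only a chromosome, a start and an end per region. SHOH, SHOL, SLOH and SLOL therefore could not be compared, no replicate error exists for any value below, the depth of the libraries is unknown from the list, and a region may come from a single library or from all of them. The line is a single clone. Intervals on shares are 95% Wilson intervals that cover counting error alone, and no statistical test was made.

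The proteasome degrades proteins that carry ubiquitin chains. Its barrel-shaped core particle is built from rings of alpha subunits, which gate the entrance, and rings of beta subunits, some of which carry the proteolytic sites, and a regulatory particle with ATPases at its base recognises, unfolds and feeds in substrates. Most subunits are made in every cell, whereas interferon-induced beta subunits replace the catalytic ones in the immunoproteasome, which generates peptides for antigen presentation, and further variants serve the thymus and the testis.

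Accessible DNA was found at nearly all proteasome genes. A region lay within 5 kb of a TSS for 48 of the 49 genes (98.0%, 89.3 to 99.6), beside 77.1% of all protein-coding autosomal genes. A promoter region, defined as a region whose centre fell between 1000 bp before and 100 bp after a TSS, was present at 44 genes (89.8%, 78.2 to 95.6), beside 58.9% of all. The proteasome genes have more annotated TSSs than all genes, with medians of 5 and 3 per gene, and any TSS counted. With the 5′ end as the only TSS, 30 genes (61.2%, 47.2 to 73.6) had a promoter region, beside 40.0% of all. The promoter definition is strict on the downstream side, and at 47 genes a region covered a TSS (95.9%), beside 62.6% of all. Psme2b alone had no region within 5 kb.

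The sequences that frame the contrast between constitutive and immune subunits come from the catalytic beta subunits. Psmb5, Psmb6 and Psmb7 carry the chymotrypsin-like, caspase-like and trypsin-like sites, and Psmb8, Psmb9 and Psmb10 take their places in the immunoproteasome, while Psmb11 takes the place of Psmb5 in the thymus. For Psmb5 (chr14:54617996-54618245, minus strand), Psmb6 (chr11:70525107-70525356, plus strand), Psmb9 (chr17:34187331-34187580, minus strand) and Psmb11 (chr14:54625060-54625309, plus strand), the 250 bases upstream of the RefSeq TSS are shown. For Psmb8 the shown bases are those of its accessible region that lie upstream of its annotated TSSs (chr17:34197537-34197720, plus strand). Psmd13, a subunit of the regulatory particle, is added (chr7:140882144-140882393, plus strand) because its window held the only match to the OCT octamer. All are from GRCm38.p6 and run 5′ to 3′. Capitals mark matches to any of 12 short motifs whose letters are given with the motif counts.
Psmb5: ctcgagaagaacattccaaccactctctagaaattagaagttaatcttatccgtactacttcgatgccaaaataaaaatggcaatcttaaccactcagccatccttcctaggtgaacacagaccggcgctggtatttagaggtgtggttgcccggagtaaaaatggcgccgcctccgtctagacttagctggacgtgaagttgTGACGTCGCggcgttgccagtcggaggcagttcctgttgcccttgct
Psmb6: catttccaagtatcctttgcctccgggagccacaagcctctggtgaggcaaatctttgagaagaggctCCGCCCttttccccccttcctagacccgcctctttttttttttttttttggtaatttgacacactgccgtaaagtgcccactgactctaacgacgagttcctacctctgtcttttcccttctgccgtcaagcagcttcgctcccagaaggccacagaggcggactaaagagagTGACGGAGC
Psmb8: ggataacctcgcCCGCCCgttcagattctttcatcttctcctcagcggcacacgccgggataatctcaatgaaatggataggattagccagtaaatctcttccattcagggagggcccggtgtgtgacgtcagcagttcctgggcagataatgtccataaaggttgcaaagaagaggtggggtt
Psmb9: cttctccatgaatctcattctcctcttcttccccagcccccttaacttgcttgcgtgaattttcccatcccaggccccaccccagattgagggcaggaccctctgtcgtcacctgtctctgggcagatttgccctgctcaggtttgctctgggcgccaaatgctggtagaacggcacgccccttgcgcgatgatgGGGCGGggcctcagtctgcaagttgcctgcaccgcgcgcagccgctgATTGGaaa
Psmb11: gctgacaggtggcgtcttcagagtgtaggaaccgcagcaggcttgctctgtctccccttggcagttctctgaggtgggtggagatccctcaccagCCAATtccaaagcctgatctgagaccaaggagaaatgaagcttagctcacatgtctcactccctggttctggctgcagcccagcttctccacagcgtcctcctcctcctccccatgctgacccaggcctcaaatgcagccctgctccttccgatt
Psmd13: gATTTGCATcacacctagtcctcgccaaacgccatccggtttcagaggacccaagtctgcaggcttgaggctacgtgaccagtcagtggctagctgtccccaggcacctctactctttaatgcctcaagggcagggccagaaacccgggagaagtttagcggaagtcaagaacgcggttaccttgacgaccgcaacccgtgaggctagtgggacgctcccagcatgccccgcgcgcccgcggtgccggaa

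The printed bases differed in how much of them was accessible. Those of Psmb5, Psmb9 and Psmd13 lay wholly inside a region, 88.4% of those of Psmb6 did, and none of those of Psmb11 did. Psmb5 and Psmb6 each carried the core of the antioxidant response element, a sequence bound by NFE2L2 and by NFE2L1, the factor that raises proteasome gene expression when proteasome activity falls. It began 47 bases before the RefSeq TSS in Psmb5 and 9 bases before it in Psmb6. Psmb7, the remaining constitutive catalytic gene, held those letters in none of its regions. Neither Psmb8, Psmb9 nor Psmb11 held them in the bases shown, but the 570 bp accessible region of Psmb10 did. The stretch shown for Psmb8 is shorter, 184 bases, and was chosen in another way, so it is not comparable. The core was in 13.6% of the RefSeq windows of proteasome genes and in 13.2% of those of all genes, so its windows did not stand apart.

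**Figure D1:**
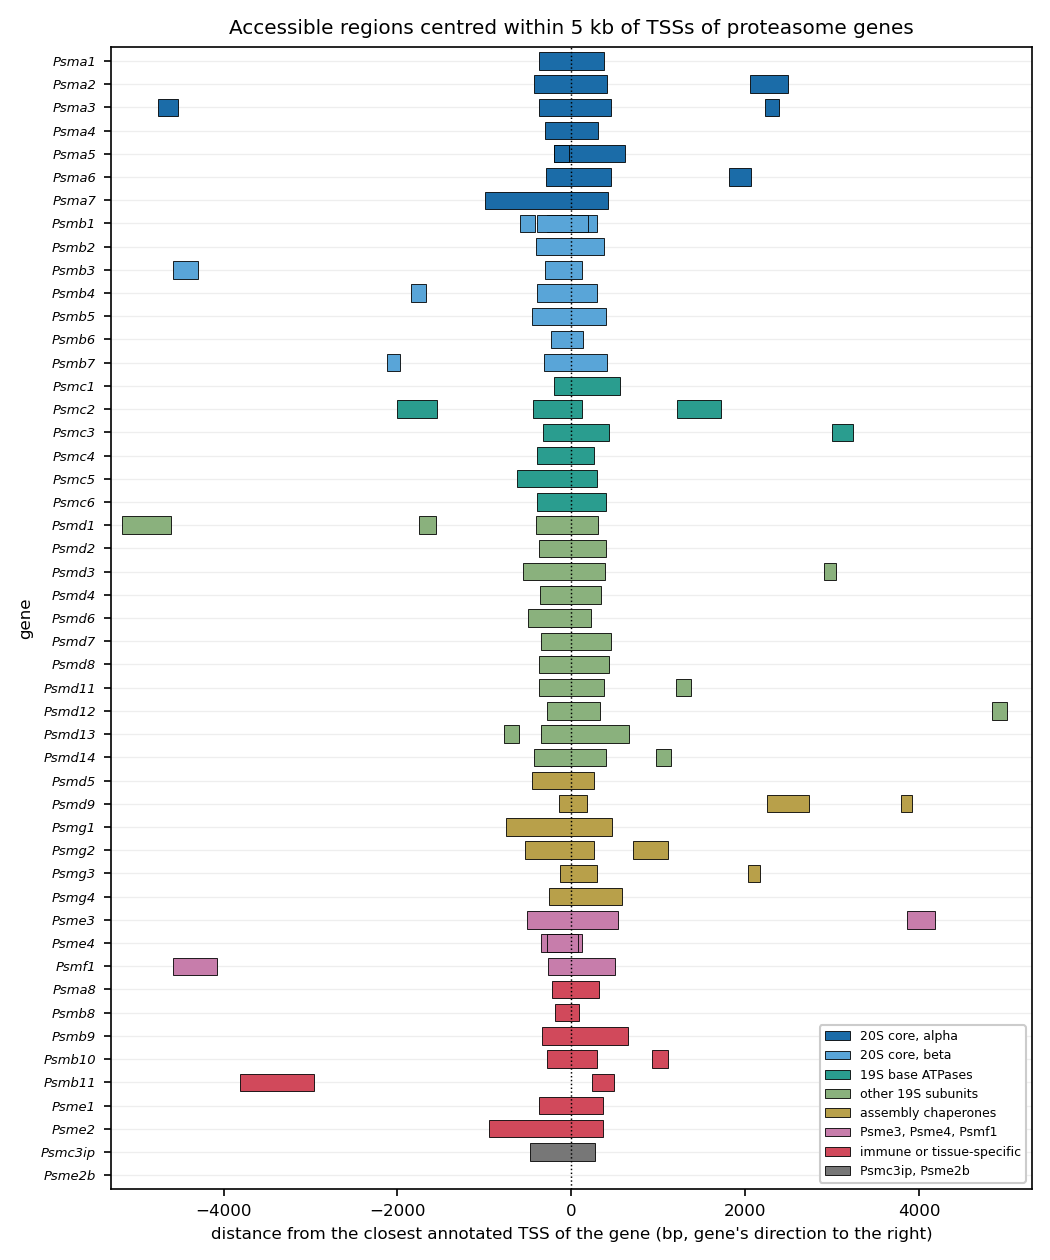
Each bar is an accessible region, drawn at its width in bp and at its distance from the closest annotated TSS of the gene in its row, with genes grouped and coloured by role. Bars that overlap in a row belong to different TSSs of that gene. Most rows carry a bar across the TSS, the row of Psmb11 has its bars to either side, and the row of Psme2b is empty.

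The map of regions around the TSSs shows a common layout, with a wide region over the TSS and few other regions. Of the 49 genes, 22 had 1 region, 21 had 2 and 5 had 3. The median was 2 regions per gene, beside 1 over all protein-coding autosomal genes, where the range reached 19. The median fell to 1 in 7 of 11 alternative settings, such as a 1 kb window or the 5′ end as the only TSS, so the number per gene did not stand apart from that of all genes. None had more than 3 regions.

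Of the 77 distinct regions, 48 were promoter regions of a proteasome gene and 29 were not. The promoter regions had a median width of 727.5 bp (172 to 1414), and the others a median of 261 bp (125 to 841). Of these others, 4 covered a TSS of their gene and missed only the downstream limit of the definition, at Psma5, Psmc1, Psmf1 and Psmg4 (758 to 841 bp). The 25 that covered no TSS of their gene were mostly narrow, with a median of 249 bp (125 to 675). Of the 29, 10 were centred in exons, 11 in introns, 6 between genes and 2 in the promoter of a neighbouring gene. At the 44 genes with a promoter region, the centre of the widest lay within 100 bp of a TSS in 33 and within 200 bp in 42. Among the genes with a region within 5 kb, Psmb11 at 362.5 bp, Psme2 at 290.5 bp and Psma7 at 284.5 bp had the closest region centre farthest from a TSS.

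Of the 79 pairs of a region and a gene, 25 were centred more than 1 kb from a TSS. The regions closest to the limit of 5 kb on the inside were 4923.5 bp from a Psmd12 TSS, 4888 bp upstream of Psmd1 and 4644.5 bp upstream of Psma3. Those closest on the outside were at 5165.5 bp for Psmb6, 5174.5 bp for Psmc1 and 5216.5 bp for Psmb8. With the window reduced to 1 kb, 48 genes still had a region, beside 69.5% of all protein-coding autosomal genes.

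Among the alpha subunits of the core particle, all 7 genes had a region and a promoter region, and the widest region per gene had a median of 814 bp (605 to 1414). Psma7 had the widest region of all proteasome genes, 1414 bp, which extended over the start of the divergent gene Ss18l1. Psma3 had 3 regions, the main one 836 bp wide. At Psma5 the 814 bp region was centred 212.5 bp downstream of a TSS, so that a separate region of 174 bp, at another TSS, counted as its promoter region.

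The 7 beta subunits of the constitutive core also all had a promoter region, with a median widest region of 682 bp (368 to 851). The catalytic ones spanned this range. Among these 7 genes, Psmb5 had the widest region, a single one of 851 bp, and Psmb6 the narrowest, a single one of 368 bp. Psmb7 had a region of 720 bp. Psmb3, a structural beta subunit, was also narrow at 421 bp. Psmb1 had 3 regions, the widest of 579 bp, and it shares its 5′ end with Tbp, the gene of the TATA-binding protein.

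In the regulatory particle, the 6 ATPase genes of the base, Psmc1 to Psmc6, had a median widest region of 762 bp (566 to 922), and the 11 other subunit genes a median of 767 bp (613 to 1017). All 17 had a region over a TSS. Psmc1 lacked a promoter region by the definition used, since its 758 bp region was centred 183.5 bp downstream of the TSS. Psmc2 and Psmd1 had 3 regions each. The region 555 bp wide and 4888 bp upstream of Psmd1 was the widest of those more than 1 kb from a TSS at any gene of the regulatory particle. Psmd13 was the widest of this group, with 1017 bp.

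The 6 assembly chaperone genes, Psmd5, Psmd9 and Psmg1 to Psmg4, help to put the rings and the base together and are absent from the finished particle. All had a region, with widths spread from 428 bp at Psmg3 to 1218 bp at Psmg1. Psmd9 was unusual among them in that its widest region, 479 bp, lay 2494 bp from its closest TSS in an exon and nearest to Hpd, while the region at its own promoter had 323 bp. The region of Psmg4, 841 bp wide, was centred 159 bp downstream of the TSS and so fell outside the promoter definition.

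Psme1 to Psme4 encode activators that open the core without the regulatory particle, and Psmf1 encodes an inhibitor of the core. Psme3, the nuclear activator, had a promoter region of 1046 bp. Psme4, the activator with a role in spermatogenesis and DNA repair, had a region of 473 bp and one of 359 bp at separate TSSs. The main region of Psmf1 had 770 bp and was centred 114.5 bp downstream of the TSS, just beyond the promoter definition. Psme1 and Psme2, which together form the interferon-induced activator, are given with the immune subunits.

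**Figure D2:**
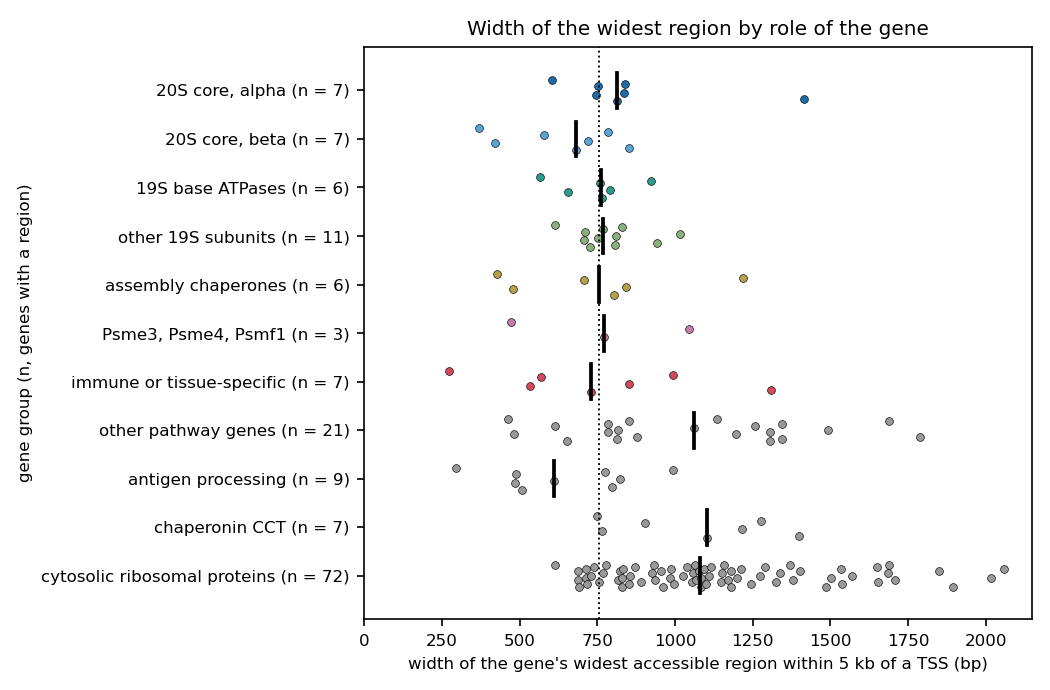
Each point is the width in bp of the widest accessible region within 5 kb of a TSS of a gene, by role of the gene, with black bars at the group medians and a dotted line at the median of all protein-coding autosomal genes with a region, 756 bp. Proteasome groups lie around that line, and the ribosomal protein, chaperonin and other pathway genes have medians above 1000 bp.

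Over all proteasome genes with a region the median width of the widest region was 755 bp (95% order-statistic interval 709 to 808), and over all protein-coding autosomal genes it was 756 bp. In width the proteasome genes were thus close to the median gene. Other housekeeping genes of the same lists had wider regions. The 72 cytosolic ribosomal protein genes had a median of 1081 bp, and the 7 matched genes of the chaperonin CCT, which lack a Cct6 gene, one of 1104 bp. All of these genes had a region. The plot of widths by role shows that Psma7, Psme2, Psmg1, Psme3 and Psmd13 were the 5 proteasome genes above 1000 bp.

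All 31 constitutive subunit genes (89.0 to 100% as the Wilson interval of the share) and all 7 immune or tissue-specific ones (64.6 to 100%) had a region within 5 kb. Presence alone thus did not separate the classes. Over all protein-coding autosomal genes the share was 77.1%, which the interval of the 7 genes holds, so these 7 did not stand apart. A promoter region was found at 30 of the 31 (83.8 to 99.4%) and at 6 of the 7 (48.7 to 97.4%), beside 58.9% of all. The second interval holds that share too. With the 5′ end as the only TSS, the immune genes Psmb9, Psmb10 and Psme1 lost their promoter region. The constitutive genes Psma3, Psma5, Psma6, Psmb4, Psmb7, Psmc3, Psmd1 and Psmd6 lost theirs in the same setting. The median widest region was 758 bp (368 to 1414) in the constitutive class and 729 bp (271 to 1308) in the other, a difference of 29 bp. That difference had no stable sign. It became 188 bp with a 1 kb window, -143 bp with the summed width of all regions of a gene, and -32 bp without Psmb10. With the window at 1 kb, Psmb11 loses the region it shares with Psmb5.

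The immune and tissue-specific genes differed more among themselves than their median shows. Psmb8 had the narrowest widest region of all proteasome genes, 271 bp, centred 49 bp upstream of a TSS. This rank rests on the 5 kb window, since within 1 kb the only region of Psmb11 had 252 bp. Psmb9 had one of 994 bp, which also covers the start of Tap1, the gene of a peptide transporter of antigen presentation. The Tap1 TSS lies on the opposite strand, 30 bp inside Psmb9 when counted from the GENCODE 5′ end of Psmb9. The RefSeq TSS of Psmb9, used for the sequence shown, lies farther downstream, so the Tap1 TSS is upstream of that start. The Psmb9 region was assigned to Tap1 when only the closest gene was counted. Psmb10 had a region of 570 bp, but it lay 1425.5 bp downstream of the TSS of the principal transcript, at the start of transcripts annotated as non-coding. With TSSs of protein-coding transcripts alone, Psmb10 had no promoter region, and the constitutive genes Psma5, Psmb4 and Psmb7 also lost theirs.

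Psmb11, the catalytic subunit of the thymus, was the only one of the 7 without a promoter region. Its widest region, 851 bp, was the promoter region of its neighbour Psmb5, centred at -3386 bp from its closest TSS. The remaining one, 252 bp wide, was centred in its exon, 362.5 bp downstream. Psma8, which replaces Psma7 in the testis, had a region of 533 bp over its TSS, beside the 1414 bp of Psma7. Of the interferon-induced activator, Psme1 had a promoter region of 729 bp and Psme2 one of 1308 bp, and they shared a further region of 675 bp that was closest to Emc9. Psme2 and Psmb9 thus had the widest regions of the 7, and Psmb8, Psma8 and Psmb10 the narrowest.

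The constitutive counterparts did not always have the wider region. Psmb5 at 851 bp exceeded Psmb8 at 271 bp, and Psmb7 at 720 bp exceeded Psmb10 at 570 bp. Psmb6 at 368 bp was narrower than Psmb9 at 994 bp, the gene that shares its start with Tap1. The RefSeq windows gave a further view of the same genes. Of 44 windows matched to 41 proteasome genes, the 250 upstream bases lay wholly inside a region in 32 (72.7%), beside 41.0% of 19174 windows of all genes, and outside any region in 5 (11.4%), beside 39.9% of all. Those 5 belonged to Psma6, Psmb8, Psmb10, Psmb11 and Psme2b, and the regions of Psma6, Psmb8 and Psmb10 lay at other annotated TSSs.

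Psme2b, the only gene without a region, and Psmc3ip meet the symbol rule without being listed subunits. Psmc3ip encodes a factor of meiotic recombination and had a promoter region of 748 bp. The principal Psme2b transcript has 1 exon where that of Psme2 has 11, and their sequences were 99.4% identical over 794 aligned bases. The closest region lay 5473.5 bp from the Psme2b TSS. Reads that align to several places were not kept upstream of the list, and their part in the missing region was not tested.

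**Figure D3:**
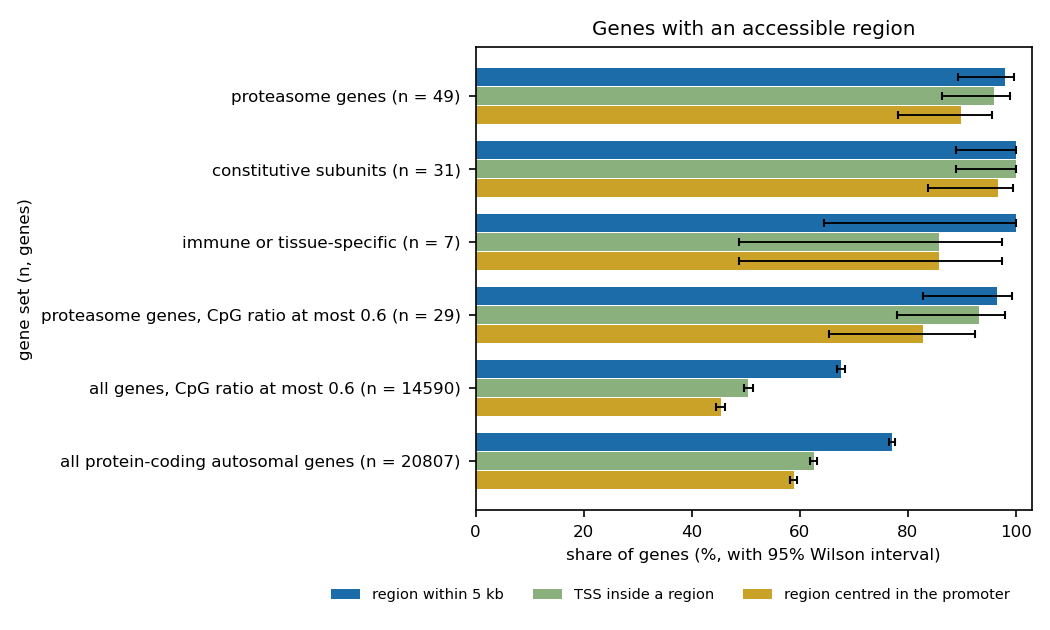
Bars give the share of genes (%) with a region within 5 kb, with a TSS inside a region and with a region centred in the promoter, and whiskers give 95% Wilson intervals. The proteasome genes lie above all protein-coding autosomal genes in each measure. In the sets with a CpG ratio of at most 0.6 the median ratio is 0.50 for proteasome genes and 0.28 for all genes, so these sets are not matched in composition.

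Promoters rich in CpG are accessible in most cells, so base composition was set beside accessibility. The CpG ratio is the observed number of CpG over that expected from the C and G content, here in the stretch between 1000 bp before and 100 bp after the principal TSS. Proteasome genes had a median ratio of 0.57, beside 0.43 for all genes, and 20 of 49 (40.8%) had a ratio over 0.6, beside 29.8%. All 20 had a region, as did 99.3% of the 6210 protein-coding autosomal genes over that ratio. Of the 29 at or under 0.6, 28 had a region (96.6%), beside 67.6% of the 14590 protein-coding autosomal genes in that range. The genes compared there were not alike in composition, with median ratios of 0.50 for the proteasome genes and 0.28 for all. In the narrower range over 0.4 and up to 0.6, chosen after the data were seen, all 20 proteasome genes had a region, as did 97.5% of all 4796 genes. At or under 0.4 it was 8 of 9 proteasome genes (56.5 to 98.0%), beside 53.0% of all, again with unlike medians of 0.38 and 0.19. At like CpG ratio the share of proteasome genes with a region was thus close to that of all genes wherever the ratio was over 0.4, and the 9 genes below it are too few and too unlike in ratio to compare.

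By class, the CpG ratio was over 0.6 at 14 of the 31 constitutive genes and at none of the 7 immune or tissue-specific genes, a count that allows a share of up to 35.4%. This split depends on the limit, for over a ratio of 0.5, chosen after the data were seen, there were 23 of the 31 and 4 of the 7, beside 42.3% of all protein-coding autosomal genes. Psma7 had 0.93 and Psma8 0.51. Psmb10, with 0.20, and Psmb11, with 0.26, were the lowest of the immune and tissue-specific genes, and Psme2 with 0.60 the highest. In the shorter RefSeq windows of 300 bases, a choice made after the data were seen, 21 of 25 constitutive genes were over 0.6 and 0 of 6 immune or tissue-specific genes were, beside 49.8% of all genes with a window.

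**Figure D4:**
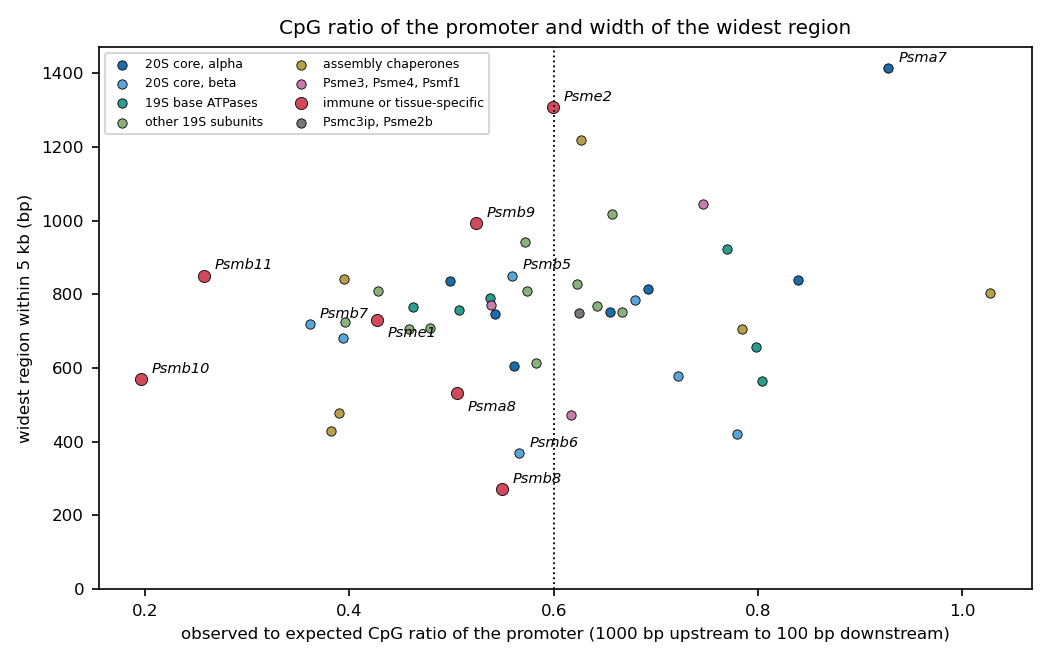
Each point is a proteasome gene with a region, placed by the observed to expected CpG ratio of its promoter and by the width in bp of its widest region, and coloured by role. The dotted line marks a ratio of 0.6. All 7 immune or tissue-specific genes lie at or left of the line, from 271 bp at Psmb8 to 1308 bp at Psme2.

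In the plot of CpG ratio against width, the immune and tissue-specific genes shared the left side with constitutive genes such as Psmb5, Psmb6 and Psmb7, at 0.56, 0.57 and 0.36. The ratios of Psmb5 and Psmb6 were near the proteasome median of 0.57, and in the 250 upstream bases shown they were 0.98 and 0.62. Psma7, at the upper right, combined a high ratio with the widest region.

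Some proteasome genes share their start with a neighbour, and a region there belongs to both genes. A TSS of another gene on the opposite strand lay within 1 kb of the 5′ end in 14 of the 49 (28.6%), beside 20.4% of all protein-coding autosomal genes. In 8 of them (16.3%, beside 8.93%) it belonged to a protein-coding gene lying upstream. These pairs were Psma2 with Mrpl32, Psma7 with Ss18l1, Psmb1 with Tbp, Psmc2 with Dnajc2, Psmc5 with Ftsj3, Psmd13 with Sirt3, Psme2 with Rnf31 and Psmg2 with Cep76. The widest region had a median of 880.5 bp (566 to 1414) at these 8 genes and of 749.5 bp (271 to 1218) at the other 40 with a region. These ranges overlap, and the same contrast was not made over all genes. Among the 77 regions, 61 had a proteasome gene as the closest gene and 16 had another gene.

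Motifs of 12 kinds were searched on both strands. They were the antioxidant response element core (TGACNNNGC), the interferon response element core (GAAANNGAA), the STAT site (TTCNNNGAA), the NF-Y box (CCAAT), the SP box (GGGCGG), the ETS site (CCGGAAGT), the core of nuclear respiratory factor 1 (GCATGCGC), the YY1 site (AAGATGGC), the TATA box (TATAAA), the OCT octamer (ATGCAAAT) and the SOX motifs CCATTGT and CCTTTGT. Interferon and STAT matches can share bases. A match describes the letters and shows neither binding nor regulation.

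In the RefSeq windows, which run from 250 bases before to 50 after the TSS, the ETS site was found in 10 of 44 windows of proteasome genes (22.7%, 12.8 to 37.0), beside 5.45% of all 19174 windows. Both windows of Psmc2 held the site, so these 10 windows came from 9 of the 41 genes, while the interval counts each window separately. Genes with the ETS site came from several roles. Among them were Psma6 of the core, Psmc1 and Psmc2 of the base, Psmd12 and Psmd13 of the regulatory particle, and the activators Psme3 and Psme4. The antioxidant core was in 6 windows, the 13.6% given above, at Psmb5, Psmb6, Psmc6, Psmd9, Psmd12 and Psme4. The interferon core was in 7 windows (15.9%, 7.93 to 29.4, beside 8.11%), of which Psme1 was the only immune gene. Matches to the STAT site were in 3 windows (6.82%, beside 7.74%), including that of Psmb8.

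Apart from the ETS site, the interval of each motif's share in the windows held the share of all windows. The SP box was in 52.3% of windows, beside 48.3%, and the NF-Y box in 31.8%, beside 37.5%. The TATA box was in 9.09%, beside 12.1%. The nuclear respiratory factor 1 core and the YY1 site were each in 3 windows (6.82%, 2.35 to 18.2), beside 3.67% and 3.09%.

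Of the motifs of the sorted factors, the OCT octamer was in 1 window (2.27%, beside 1.55%), that of Psmd13, where it begins 249 bases before the TSS in the sequence shown. Neither SOX motif was in any of the 44 windows (up to 8.03% by the Wilson interval), beside 2.84% and 5.15% of all. In the promoter regions of proteasome genes CCATTGT was in 0 of 48 (beside 4.50%), CCTTTGT in 4 (8.33%, beside 9.62%) and the octamer in 1 (2.08%, beside 2.08%). The intervals of these shares hold the shares of all genes, and the list offers no level in SOX2-high or SOX2-low cells to set beside them.

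**Figure D5:**
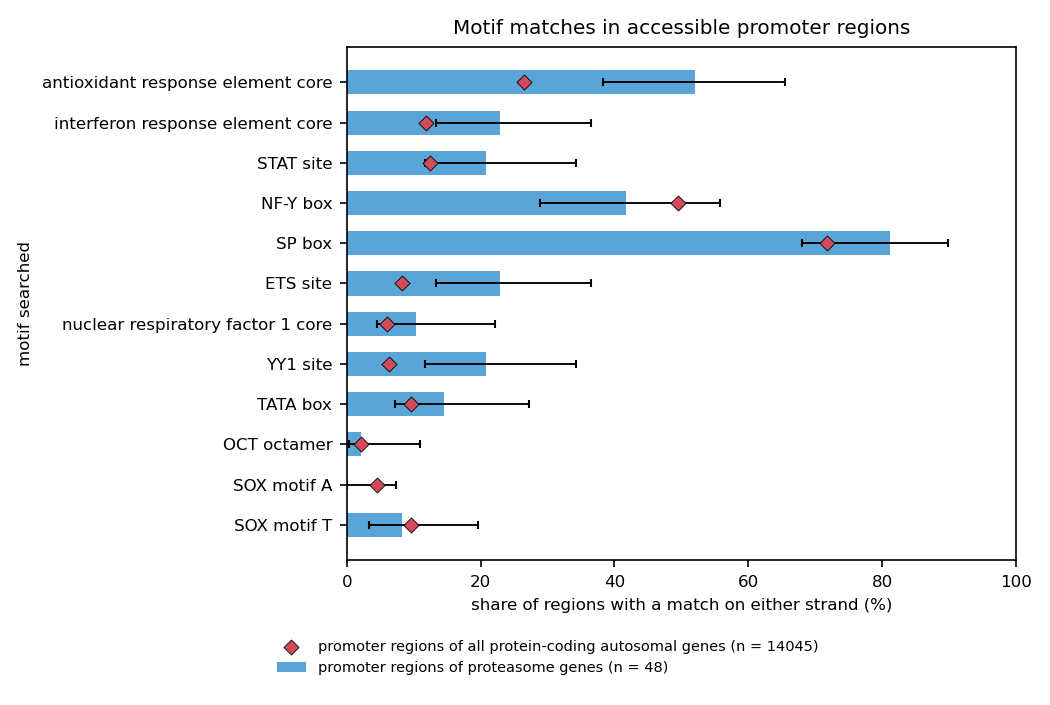
Bars give the share (%) of the 48 promoter regions of proteasome genes with a match to each motif, with 95% Wilson intervals as whiskers, and diamonds give the share of the 14045 promoter regions of all protein-coding autosomal genes. The diamonds of the antioxidant, interferon, ETS and YY1 motifs lie left of the whiskers, and the others lie within them.

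The accessible promoter regions themselves gave a different order of motifs from the short windows. The antioxidant core was in 25 of 48 promoter regions (52.1%, 38.3 to 65.5), beside 26.5% of 14045 promoter regions of all protein-coding autosomal genes. The ETS site was in 11 (22.9%, beside 8.31%) and the YY1 site in 10 (20.8%, beside 6.37%). The interferon core was in 11 (22.9%, beside 11.9%). These regions were also wider than those of all genes, with medians of 727.5 bp and 638 bp, and the part of width in these shares was not tested. Over all their regions, promoter or not, 29 of the 48 genes with a region held the antioxidant core (60.4%, 46.3 to 73.0), beside 40.2% of all 16034 protein-coding autosomal genes with a region, whose summed regions had a median of 1004 bp against 858 bp. They included 6 of 7 alpha subunit genes, 3 of 7 constitutive beta subunit genes (Psmb2, Psmb5 and Psmb6), 12 of 17 regulatory particle genes, 2 of 6 assembly chaperone genes and 3 of 7 immune or tissue-specific genes. These counts by role are too small to compare with each other.

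Immune genes differed from each other in these letters. The interferon core was in regions of Psmb9, Psme1 and Psme2, and in none of Psmb8, Psmb10, Psmb11 or Psma8. It was also in regions of the constitutive genes Psma2, Psma3, Psma4, Psma6, Psmb3, Psmb4, Psmc2, Psmc3, Psmc5, Psmd4 and Psmd7. Of the 77 regions of proteasome genes 16 held it (20.8%), beside 9.83% of all 81132 regions. These sets are unlike, since 48 of the 77 were promoter regions, with a median width of 727.5 bp, beside 355 bp for all regions. The part of width was not tested here either. The antioxidant core was in regions of Psmb10, Psma8 and Psmb11, the last in its exon as well as in the region it shares with Psmb5. Psmb8, with the narrowest region, held neither.

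Further genes of the pathway came from a list of factors that bind, regulate or supply the proteasome. All 21 matched genes had a region within 5 kb (84.5 to 100%), beside 77.1% of all protein-coding autosomal genes. A promoter region was present at 15 of them (71.4%, 50.0 to 86.2), beside 89.8% of the proteasome genes and 58.9% of all. Their median widest region was 1062 bp (464 to 1788). The ubiquitin genes Ubb and Rps27a had 1788 bp and 1688 bp. Nfe2l2 had 1494 bp, Nfe2l1 1134 bp, and Ddi2, which encodes the protease that activates NFE2L1, 483 bp. Pomp, the maturation factor of the core, had 813 bp, and Adrm1, a ubiquitin receptor, 464 bp. Ubb, Rps27a and Nfe2l2 thus had a wider region than any proteasome gene, while Ddi2 and Adrm1 were as narrow as Psmd9.

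Genes of antigen processing that work with the immunoproteasome were accessible as well. The 9 genes described each had a region (70.1 to 100% as the Wilson interval), which does not stand apart from the 77.1% of all genes, with a median widest region of 611 bp (294 to 994). Tap1 had the 994 bp it shares with Psmb9, and Tap2, its partner in the transporter, had 294 bp. B2m, the light chain of class I molecules, had 822 bp, and H2-K1, a heavy chain, 611 bp. The regulators Irf1 and Nlrc5 had 774 bp and 486 bp. The list does not give how strongly any of them was opened.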

How the data were processed

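ATAC-seq was performed on 12 libraries of sorted SBROS cells. The authors aligned reads to mm10 with STAR 2.5.3a, retained reads with a unique alignment, dropped duplicates (Picard), called peaks per library with MACS2 2.1.1.20160309 on whole fragments, merged them with BEDOPS and discarded those overlapping peaks of a ChIP-seq input. DeepTools 2.4.2 is also named in the submitters' processing notes. The deposited list holds 3 columns, with 0 columns of values of unknown samples, and no level, score or library. The 4 ChIP-seq libraries, which are from OCT4 or SOX2 precipitations, were not used.

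Regions were placed on GENCODE M21 and GRCm38.p6, within whose chromosome lengths they all lie, with Python 3.11.15, numpy 2.4.6, scipy 1.17.1 and pysam 0.24.0. Transcripts of Psme2 and Psme2b were aligned locally with Biopython 1.88, and plots drawn with matplotlib 3.10.9. Promoter windows are from RefSeq, and those of Psma8, Psmb1, Psmb2, Psmb7, Psmc3, Psmd3, Psmd7 and Psmg2 are missing entries. Assignment of regions was tested on simulated data. The genes named are all immune or tissue-specific genes with Psmb5, Psmb6, Psmb7 and Psma7, Psme1 to Psme4, genes without a region, the 5 widest and 5 narrowest, those with the most regions (5 genes tied) and those whose region lies farthest from a TSS. Others named as examples were chosen after their values were seen. Of the antigen processing list, 1 gene is not reported. Members and lists were chosen with earlier results of these data known. Alternatives were other windows, TSS sets, promoter definitions, region lists and gene classes.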

Additional observations from a re-analysis of the deposited data

How the results depend on the processing

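The count of 48 genes with a region ranged from 47, when Psmc3ip and Psme2b were left out, to 49 with a 10 kb window. The share of all protein-coding autosomal genes was not computed for the 10 kb window. All constitutive and all immune or tissue-specific genes had a region under each of 10 alternatives. Genes with a promoter region ranged from 30, with the 5′ end as the only TSS, to 48 with either wider promoter. Over all protein-coding autosomal genes the share was 40.0% with the 5′ end alone and was not computed for the wider promoters. With TSSs of protein-coding transcripts alone, 40 proteasome genes (81.6%) had a promoter region, beside 54.1% of all. The median number of regions per gene was 1 in 7 of 11 alternatives and 2 in the others. The median widest region stayed between 751.5 and 766.5 bp. The difference in width between the classes became -143 bp with summed widths and -32 bp without Psmb10.

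Motif counts over 41 genes depended on the sequence searched. In the widest region the antioxidant core was in 21 genes, the interferon core in 12, the STAT site in 9, the YY1 site in 8 and the SOX motif CCTTTGT in 3. From 1000 bases upstream to 100 downstream these were in 15, 19, 12, 10 and 6 genes, the NF-Y box in 30, the TATA box in 18, the OCT octamer in 2 and the SOX motif CCATTGT in 3. With a CpG ratio limit of 0.5, chosen after the data were seen, 34 of the 49 genes were above it, beside 42.3% of all. The ETS site was in 9 genes by the main windows, 10 by the widest region and 9 by the longer window, and the SP box in 22, 32 and 27. The same counts over all genes were not made for the widest regions or the longer windows. These motif counts therefore do not show whether proteasome genes stand apart there. The part of length in these counts was not tested.

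No paired analysis was possible because the list carries no value per library, although the populations share replicate numbers, and leaving out a replicate was not possible for the same reason. The list gives no depth, peak strength or number of libraries behind a region, so a missing region at Psme2b or at the RefSeq start of Psmb8, Psmb10 or Psmb11 says only that no peak was listed there.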
